A study of Mus musculus with 24 samples.

Results

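Liver X receptor (LXR) genes and the genes of cholesterol efflux and esterification were followed in whole mouse liver. The group was given as 10 gene symbols, namely Nr1h3, Nr1h2, Abca1, Abcg1, Abcg5, Abcg8, Scarb1, Pltp, Soat1 and Soat2. All 10 were found among the 56205 genes of the count table, and all 10 were among the 17913 genes that passed a filter of at least 1 count in at least 12 libraries and were tested. On the high-fat diet, 3 of the 10 were higher (Abcg1, Abcg5 and Soat1), none was called lower, and the receptors, Abca1, Abcg8, Scarb1, Pltp and Soat2 did not pass the test.

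The libraries came from wild-type C57BL/6J mice of both sexes, which were 8 to 10 weeks old when the diet began and received it for 20 weeks. The diet labelled high-fat held palm oil fat, fructose and cholesterol, and 12 libraries came from mice on it. Another 12 came from mice on its control diet. RNA was extracted from whole liver and selected for poly(A) tails, so a level is an average over all liver cells, and more cells of a type cannot be told apart from more RNA per cell.

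Cells that take up or make too much cholesterol turn part of it into oxysterols, which bind the LXR nuclear receptors. LXRs sit on DNA with a retinoid X receptor (RXR) partner and, once bound by an oxysterol, switch on pumps that export cholesterol and genes of fatty acid synthesis. The liver sends cholesterol to high-density lipoprotein (HDL) in the blood or into bile, and cells that cannot export it store it as cholesteryl ester. The sterol regulator SREBP2 works the other way, turning on cholesterol synthesis and uptake when sterols are scarce.

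Depth was 14468418 to 22112552 counts per library. Levels are counts scaled to a common library size (CPM) after TMM scaling, edgeR's correction of library totals for composition, with which the median log2 fold change of all genes tested was -0.03. With library totals alone it was 0.26. Calls required an adjusted p no higher than 0.01 together with a log2 fold change beyond 0.5 in either direction (quasi-likelihood test of edgeR, Benjamini-Hochberg over all 17913 genes), and by this rule 18.2% of them were called, 13.2% higher and 4.99% lower. High-fat replicate 9 and control replicate 10 stood apart, with TMM factors of 1.34 and 0.679 and a correlation with the median of their diet of 0.971 and 0.957. Replicates 1 to 6 of each diet had 2664 to 6285 counts of Xist, and replicates 7 to 12 had 0 to 3. The labels do not give the sex of a library, so these are called the sets with Xist above and below 1000 counts, with 6 libraries per diet in each, and are not labelled conditions. The hepatocyte markers Alb, Ttr, Tat, Cps1 and Hnf4a summed to 28606 to 79946 CPM on the high-fat diet and to 61053 to 114264 CPM in controls, and 4 of the 5 were called lower on the high-fat diet.

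Of the 10 members, 3 were called higher, against 13.2% of all genes, and 0 lower, against 4.99%. At an unadjusted p under 0.05, 5 were higher and 2 lower, while 47.8% of all genes passed that limit, 24.1% higher and 23.7% lower. DESeq2 and limma-voom both called 3 higher and 0 lower. The median log2 fold change over the 10 was 0.10. In Abcg1 and Soat1 every high-fat library lay above every control library, a separation found in 1.48% of all genes tested.

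**Figure D1:**
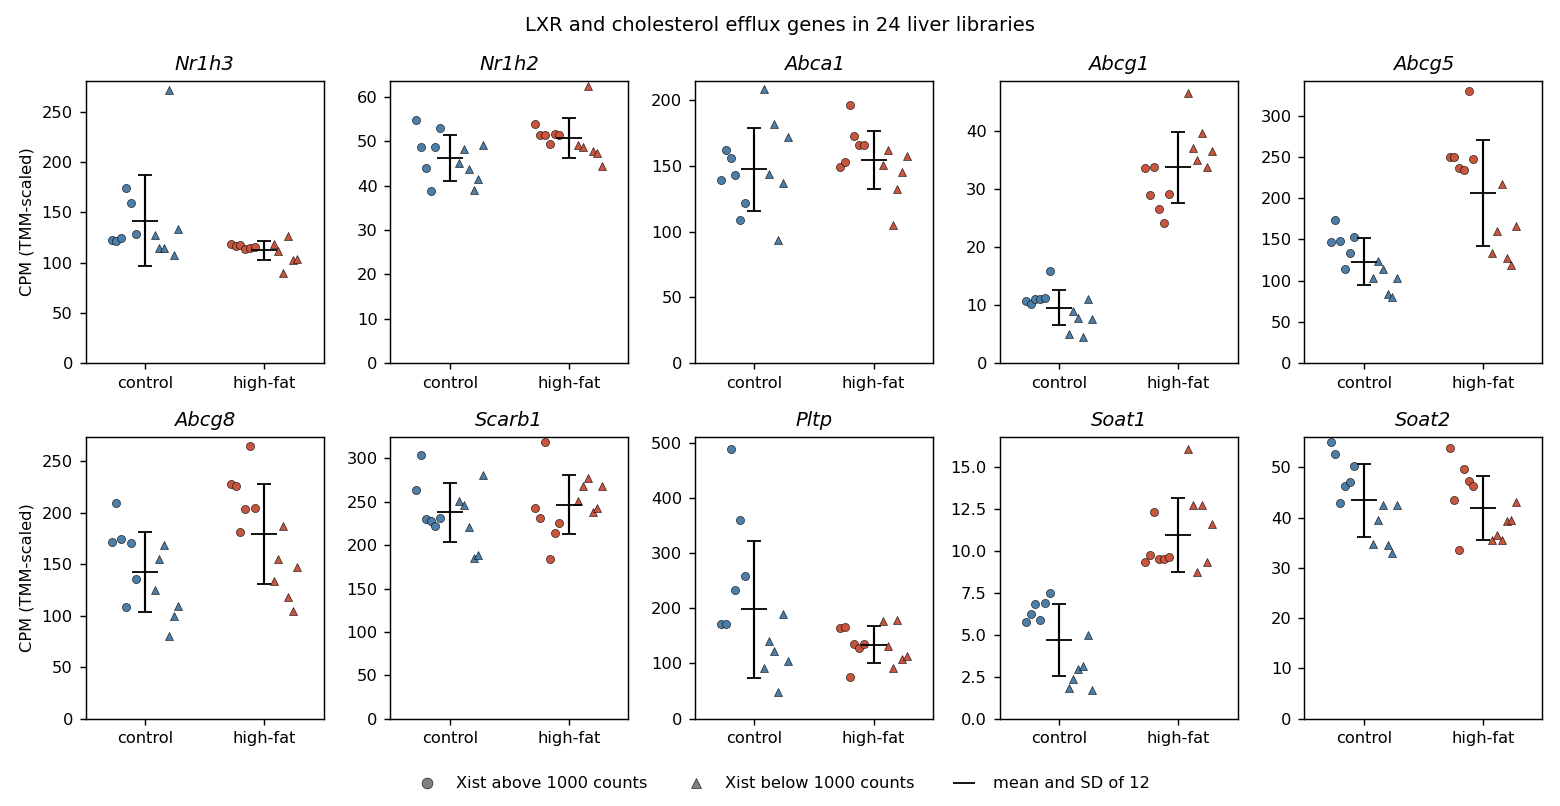
Levels of the 10 genes in each of the 24 libraries (y axis, CPM after TMM scaling, from 0) on the control diet (blue) and the high-fat diet (red), with circles for libraries with Xist above 1000 counts, triangles for those below, and bars for mean and SD (n = 12). The diets separate fully in the Abcg1 and Soat1 panels, and single control libraries reach 489.5 CPM in the Pltp panel and 271 CPM in the Nr1h3 panel.

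Relative to transcript length, the members spanned a wide range. On the control diet, the mean level per kilobase of exon was 77.5 ± 48.4 CPM per kb for Pltp (SD, n = 12), 56.2 ± 17.96 for Nr1h3, 45.3 ± 10.6 for Abcg5, 37.9 ± 10.3 for Abcg8 and 28.0 ± 4.04 for Scarb1. Below these came Soat2 at 19.6 ± 3.26 CPM per kb, Abca1 at 14.2 ± 3.07, Nr1h2 at 13.8 ± 1.52, Abcg1 at 1.31 ± 0.42 and Soat1 at 0.478 ± 0.219. Neighbors in this order overlapped within 1 SD, except at the steps from Scarb1 to Soat2, from Nr1h2 to Abcg1 and from Abcg1 to Soat1. On the high-fat diet Abcg5 came first at 75.9 ± 23.7 CPM per kb, ahead of Pltp at 52.3 ± 13.1 and Abcg8 at 47.9 ± 13.01. Abcg1 at 4.62 ± 0.835 CPM per kb and Soat1 at 1.12 ± 0.224 remained the lowest of the 10. The members called with the larger fold changes were therefore those with the lowest levels in whole liver.

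Sequences are printed for 2 promoters, that of Abca1, the best known LXR target, and the stretch shared by Abcg5 and Abcg8. The Soat1 promoter was also taken, held no match in the searches below and is not printed. LXR with RXR binds a DR4 element, 2 copies of the motif AGGTCA in the same direction with 4 bases between them. RefSeq promoter windows of GRCm38.p6, 250 bases before to 50 after each start, were found for 7 of the 10 members, in 9 windows. Abcg1, Scarb1 and Soat2 had none. On either strand, a single AGGTCA was in 0 of the 9 windows and in 16.3% of all 32851 windows, and a DR4 with at most 1 mismatch per copy was in 0 of the 9 and 1.75% of all. When up to 3 mismatches were allowed in all, a limit chosen after the stricter search found none, 1 of the 9 windows and 21.9% of all windows held a match. That match was in the Abca1 promoter on the strand opposite to the gene, with its first base 67 bases before the start, and is in capitals below (chr4:53159896-53160145, minus strand, 250 bases, written 5′ to 3′ along the gene).
Abca1 promoter: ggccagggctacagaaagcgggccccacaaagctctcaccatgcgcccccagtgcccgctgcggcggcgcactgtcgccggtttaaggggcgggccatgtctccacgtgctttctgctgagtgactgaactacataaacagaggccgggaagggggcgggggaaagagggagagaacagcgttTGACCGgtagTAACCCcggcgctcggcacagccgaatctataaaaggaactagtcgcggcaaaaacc
Abcg5 and Abcg8 are read in opposite directions on chromosome 17. RefSeq gives Abcg8 a start on either side of that of Abcg5, 1 of them inside the Abcg5 gene (base 84676302) and 1 beyond it (base 84683121). The 109 bases between the latter and the Abcg5 start (chr17:84683012-84683120, plus strand) held no match of the DR4.
Abcg5 to Abcg8: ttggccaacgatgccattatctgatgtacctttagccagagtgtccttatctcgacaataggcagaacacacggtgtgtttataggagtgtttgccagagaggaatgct

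The receptors themselves did not pass the test. Nr1h3 encodes LXRα, the form that is abundant in liver and macrophages, and lay between 89.4 and 126 CPM on the high-fat diet (median 115), against 108 to 271 CPM in controls (median 126). Its log2 fold change was -0.33 (SE 0.12, adjusted p = 0.0266), and 6 control libraries lay above every high-fat library. The highest control value was that of control replicate 10, and without it the log2 fold change was -0.21. With library totals in place of TMM it was -0.02. In the GENCODE M21 annotation, Nr1h3 shares 34 exonic bases with Gm13783 on the same strand. Nr1h2, which encodes the broadly expressed LXRβ, lay between 44.5 and 62.4 CPM on the high-fat diet (median 50.3), against 38.7 to 54.8 CPM in controls (median 46.7). Its log2 fold change was 0.13 (SE 0.06, adjusted p = 0.0994), and the diets overlapped.

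The balance between both receptors did differ by diet. The log2 ratio of Nr1h3 to Nr1h2 within a library, which does not depend on how libraries are scaled, was 1.14 ± 0.21 on the high-fat diet, against 1.57 ± 0.47 in controls (SD, n = 12). The difference was -0.43 (SE 0.15, two-sided permutation test with 100000 resamples, p = 3e-04, adjusted p = 3e-04 over the 4 ratios tested). The difference was -0.35 in the set with Xist above 1000 counts and -0.50 in the other (exact permutation test, p = 0.0108 and 0.0152). The diets overlapped, with 4 high-fat libraries below every control library. The medians, 1.18 on the high-fat diet and 1.41 in controls, lay closer together than the means. Control replicate 10 held the highest control ratio (2.80) and high-fat replicate 9 the lowest high-fat ratio (0.52). The ratio was not tested without both of these libraries. Of the receptors' partners and corepressors, a list that holds Rxra, Rxrb, Rxrg and Ncor1, edgeR called 0 of 5, as did DESeq2 and limma-voom. At an unadjusted p under 0.05, 3 of the 5 were lower, where 23.7% of all genes were. All 5 log2 fold changes were below 0, with -0.35 for Ncor1 the lowest and a median of -0.23.

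The pumps that load cholesterol onto lipoproteins in the blood parted from each other. Abca1 hands cholesterol and phospholipid to lipid-poor apolipoprotein A-I. It lay between 105 and 197 CPM on the high-fat diet (median 155), against 93.8 to 209 CPM in controls (median 144). The control libraries spanned the high-fat range, and the log2 fold change was 0.07 (SE 0.11, adjusted p = 0.651). It was 0.28 (SE 0.11, adjusted p = 0.0976) in the set with Xist above 1000 counts and -0.12 (SE 0.17, adjusted p = 0.603) in the other.

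Abcg1, which passes cholesterol on to formed HDL particles and is prominent in macrophages, had the largest fold change of the 10. It lies at chr17:31057675-31117988 on the plus strand (GENCODE M21, mm10). Its level was 24.1 to 46.5 CPM on the high-fat diet (median 33.8), against 4.48 to 15.8 CPM in controls (median 10.4). All 12 high-fat libraries were above all 12 control libraries. The log2 fold change was 1.81 (SE 0.15, adjusted p = 2.07e-08), a 3.50-fold higher level. Leaving out any 1 library gave 1.75 to 1.90. The log2 ratio of Abcg1 to Abca1 within a library was -2.20 ± 0.39 on the high-fat diet, against -3.97 ± 0.64 in controls (SD, n = 12). It differed by 1.77 (SE 0.22, two-sided permutation test with 100000 resamples, p = 2e-05, the smallest that they can give, adjusted p = 4e-05), and all 12 high-fat libraries were above all control libraries. The difference was 1.05 in the set with Xist above 1000 counts and 2.50 in the other (exact permutation p = 0.00216 in each, the smallest that 6 libraries against 6 allow). The rise of Abcg1 was therefore unequal to any change of Abca1 in the same libraries.

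The sterol transporters of bile, Abcg5 and Abcg8, form a dimer that moves cholesterol and plant sterols out of hepatocytes. Abcg5 (chr17:84658234-84683011, minus strand) lay between 119 and 329 CPM on the high-fat diet (median 226), against 79.5 to 173 CPM in controls (median 119). Its log2 fold change was 0.74 (SE 0.16, adjusted p = 0.000651), with 7 high-fat libraries above every control library. Abcg8 (chr17:84676302-84700333, plus strand) lay between 104 and 265 CPM on the high-fat diet (median 184), against 80.4 to 209 CPM in controls (median 145), with overlap. Its log2 fold change was 0.34 (SE 0.16, adjusted p = 0.0924). Abcg8 was added to the called members by library totals, which put its log2 fold change at 0.59 (adjusted p = 0.00531).

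Although 1 member of the pair was called and the other was not, they moved together from library to library. After subtraction of the mean of each Xist set, log2(CPM + 1) of Abcg5 and Abcg8 correlated with Pearson's r of 0.93 over the 12 high-fat libraries (permutation within sets with 100000 resamples, p = 8e-05, adjusted p = 9e-04 over 20 coefficients). Spearman's rho was 0.92 (permutation p = 9e-05, adjusted p = 9e-04). Over the 12 control libraries r was 0.85 (permutation p = 0.00206, adjusted p = 0.0137) and rho was 0.76 (permutation p = 0.00969, adjusted p = 0.0367). Without the 2 libraries whose Abcg5 was then farthest from its median, r was 0.88 and 0.80 on the 2 diets. Within the 6 libraries of a set, r was 0.86 and 0.96 on the high-fat diet (exact permutation p = 0.0125 and 0.00278) and 0.79 and 0.88 on the control diet (exact permutation p = 0.0681 and 0.0306). In the set with Xist above 1000 counts, Abcg5 was at 114 to 173 CPM in controls and 234 to 329 CPM on the high-fat diet, and in the other set at 79.5 to 124 and 119 to 218 CPM.

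**Figure D2:**
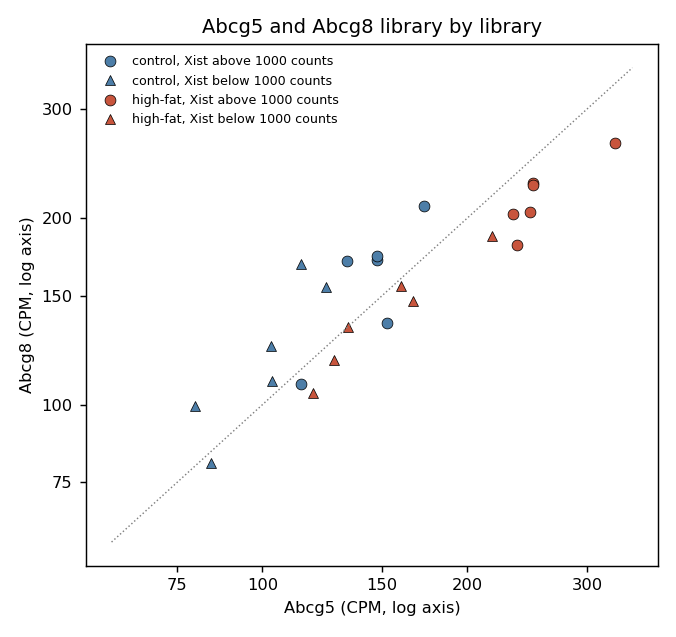
Abcg8 against Abcg5 in each library (CPM after TMM scaling, log axes), blue for control and red for high-fat diet, circles for libraries with Xist above 1000 counts and triangles for those below, with a dotted line where both are equal. The points of each diet follow a line, with r of 0.93 on the high-fat diet and 0.85 in controls after subtraction of set means, and every high-fat library lies on or to the right of the dotted line.

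The ratio of Abcg5 to Abcg8 shifted with diet. The log2 ratio was 0.18 ± 0.11 on the high-fat diet, against -0.20 ± 0.21 in controls (SD, n = 12), with 7 high-fat libraries above every control library. The difference was 0.38 (SE 0.07, two-sided permutation test with 100000 resamples, p = 0.00012, adjusted p = 0.00016). It was 0.38 and 0.37 in the sets with Xist above and below 1000 counts (exact permutation p = 0.00649 in each). In GENCODE M21 the genes share 82 exonic bases on opposite strands, and the strand setting of the counting is not given in the sources used here, so reads on those bases cannot be assigned.

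The members that act on HDL itself, Scarb1 and Pltp, did not pass the test. Scarb1 encodes SR-BI, the receptor through which hepatocytes take up cholesterol from HDL. It lay between 184 and 318 CPM on the high-fat diet (median 242), against 185 to 304 CPM in controls (median 231), a log2 fold change of 0.05 (SE 0.09, adjusted p = 0.665). The ranges were almost the same.

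Pltp, the phospholipid transfer protein that remodels HDL, varied most among control libraries, from 47.6 to 489.5 CPM (median 172), against 74.7 to 179 CPM on the high-fat diet (median 133). The log2 fold change was -0.57 (SE 0.26, adjusted p = 0.0829), and 5 control libraries lay above every high-fat library. Control replicate 3 held the highest value, and without it the log2 fold change was -0.36. In the set with Xist above 1000 counts the controls were at 171 to 489.5 CPM and the high-fat libraries at 74.7 to 167, a log2 fold change of -1.05 (SE 0.25, adjusted p = 0.0117). In the other set the controls were at 47.6 to 191 CPM and the high-fat libraries at 91.6 to 179, a log2 fold change of 0.21 (SE 0.27, adjusted p = 0.558). Pltp shares 495 exonic bases, 19.3% of its exons, with Ctsa on the opposite strand. Ctsa, looked up after this overlap was seen, was at 228 ± 23.3 CPM on the high-fat diet, against 198 ± 36.9 in controls (SD, n = 12), and at 135 CPM in control replicate 3, the lowest of the controls.

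The cholesterol esterifying enzymes differed in their response. Soat1 (chr1:156424525-156474331, minus strand) encodes ACAT1, which is found in most cells and stores cholesterol as ester in macrophage foam cells. It was 8.75 to 16.1 CPM on the high-fat diet (median 9.72), against 1.71 to 7.52 CPM in controls (median 5.37), with no overlap. The log2 fold change was 1.22 (SE 0.21, adjusted p = 7.14e-05), a 2.32-fold higher level from 171 to 334 counts per high-fat library and 26 to 163 per control library. Soat2 encodes ACAT2, the enzyme of hepatocytes and enterocytes that esterifies cholesterol for lipoproteins. It lay between 33.6 and 53.9 CPM on the high-fat diet (median 41.3), against 32.9 to 55.0 CPM in controls (median 42.8), with a log2 fold change of -0.05 (SE 0.09, adjusted p = 0.696). The log2 ratio of Soat2 to Soat1 was 1.94 ± 0.43 on the high-fat diet, against 3.33 ± 0.66 in controls (SD, n = 12), so that Soat2 counts exceeded those of Soat1 3.83 times and 10.1 times in the geometric mean. The difference was -1.40 (SE 0.23, two-sided permutation test with 100000 resamples, p = 2e-05, the smallest that they can give, adjusted p = 4e-05). All 12 high-fat libraries were below every control library. Within the sets with Xist above and below 1000 counts, it was -0.72 and -2.07 (exact permutation p = 0.00216 in each).

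**Figure D3:**
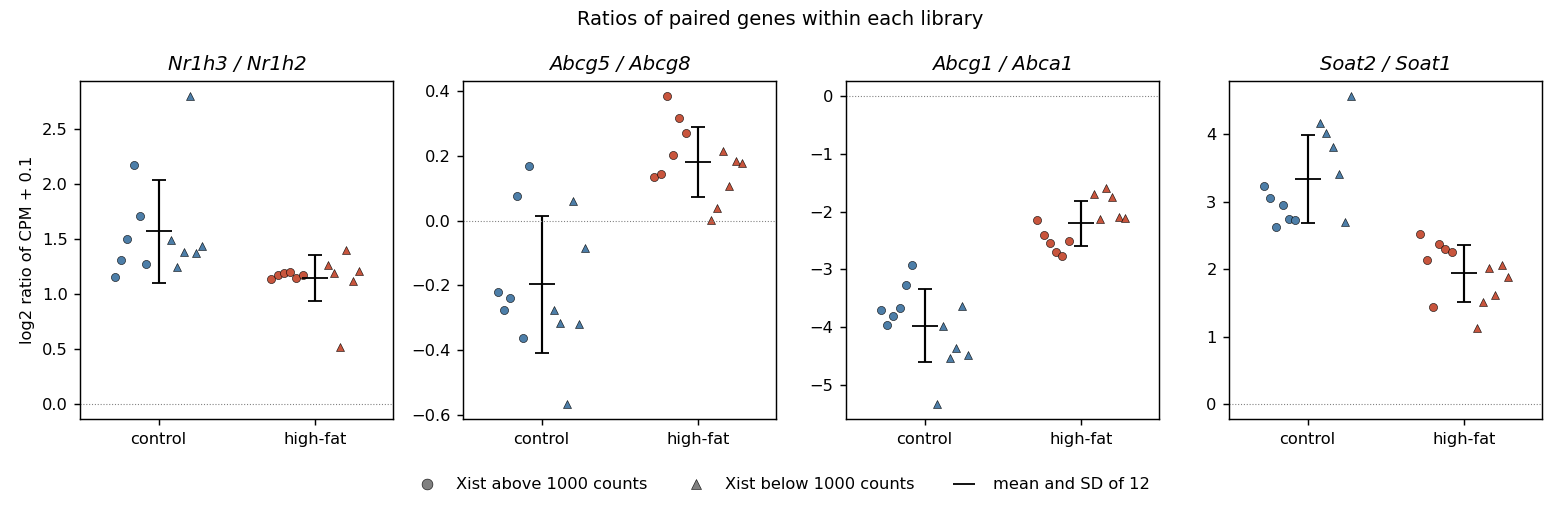
Log2 ratio of CPM + 0.1 within each library for 4 gene pairs (y axis) on the control diet (blue) and high-fat diet (red), with circles and triangles for libraries with Xist above and below 1000 counts and bars for mean and SD (n = 12). The diets do not overlap for Abcg1 to Abca1 or for Soat2 to Soat1, and they overlap for Nr1h3 to Nr1h2 and for Abcg5 to Abcg8.

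The size of the diet effect differed between the sets for 3 members. An interaction of diet and set at an adjusted p of at most 0.05 was found for 10.2% of all genes tested and for Abcg1, Soat1 and Pltp of the 10. The log2 fold change of Abcg1 was 1.34 (SE 0.12) in the set with Xist above 1000 counts and 2.36 (SE 0.19) in the other, a difference of 1.01 (SE 0.22, adjusted p = 0.00447). The set with Xist below 1000 counts was lower on the control diet (4.48 to 10.99 against 10.3 to 15.8 CPM) and higher on the high-fat diet (33.8 to 46.5 against 24.1 to 33.7 CPM). Soat1 changed by 0.63 (SE 0.11) and 2.09 (SE 0.24), a difference of 1.45 (SE 0.27, adjusted p = 0.00101), with controls at 5.75 to 7.52 CPM in the set with Xist above 1000 counts and 1.71 to 4.98 in the other. The difference for Pltp was 1.26 (SE 0.39, adjusted p = 0.0387), and it was no longer called in 12 of 24 fits that each left out 1 library, with an adjusted p of 0.0858 without control replicate 3. Those of Abcg1 and Soat1 were called in all 24. Within either set alone, the called members were Abcg1, Abcg5 and Soat1, while 3.78% of all genes were called in the set with Xist above 1000 counts and 22.3% in the other. Macrophage markers also changed unequally in the sets. Of the 5 markers of macrophages of any origin, 1 was called higher in the set with Xist above 1000 counts and 5 in the other, and the interaction passed for 4, all with the larger rise in the other set. Their summed levels were 361 to 429 CPM on the high-fat diet, against 149 to 339.5 in controls, in the set above 1000 counts, and 406 to 904 against 80.5 to 158 CPM in the set below. Of the 9 markers of monocyte-derived and lipid-associated macrophages, 7 and 9 were called higher and the interaction passed for 6, again with the larger rise in the set below. Their part in the set differences of Abcg1, Soat1 and Pltp was not tested.

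**Figure D4:**
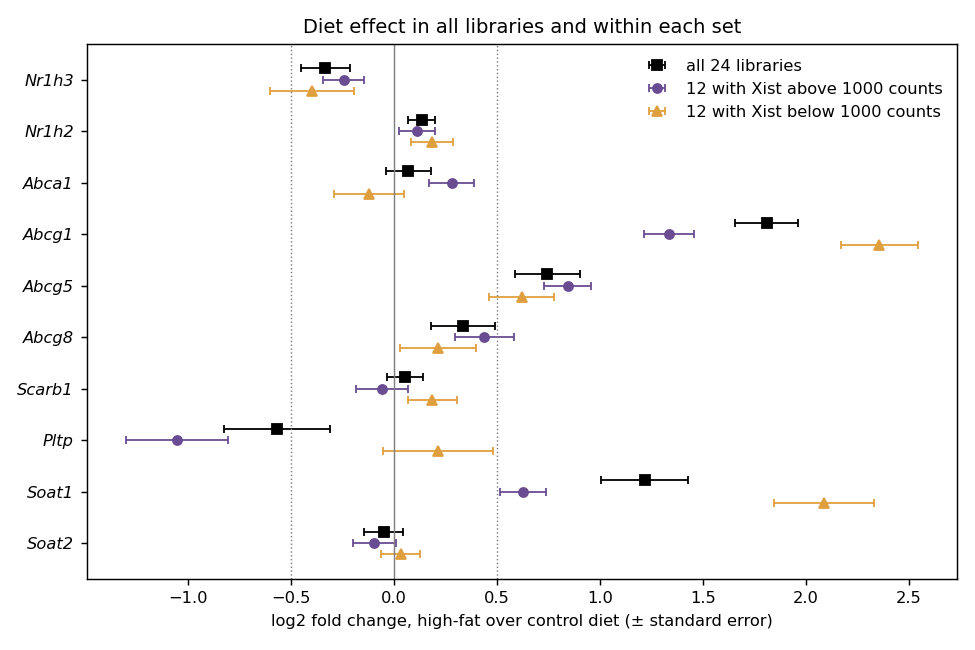
Log2 fold change of high-fat over control diet with its standard error (x axis) for each gene in all 24 libraries (black squares), in the 12 with Xist above 1000 counts (purple circles) and in the 12 below (orange triangles), with dotted lines at the fold threshold of 0.5. Abcg1 and Soat1 lie to the right of 0.5 in each fit with larger values in the set below 1000 counts, and Pltp lies at -1.05 and 0.21 in the sets.

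Macrophage markers moved with the diet in the same direction as Abcg1 and Soat1. All 5 markers of macrophages of any origin were called higher, with summed levels of 361 to 904 CPM on the high-fat diet, against 80.5 to 339.5 in controls. All 9 markers of monocyte-derived and lipid-associated macrophages were called higher, with sums of 159 to 1038 CPM against 49.3 to 176, and among them Gpnmb had a log2 fold change of 5.49 and Mmp12 of 3.98. Of 5 Kupffer cell markers only Folr2 was called higher, and the sums were 69.4 to 392 and 81.0 to 348 CPM. No marker of these lists was at 0 counts in any library, but some were low in controls. Gpnmb had 3 to 159 counts there (median 6.5), against 249 to 2554 on the high-fat diet. Mmp12 had 2 to 239 counts in controls (median 13.5), against 163 to 1074, so both fold changes rest on few control counts. The part of macrophages in the levels of Abcg1 and Soat1 was not tested. Other lists moved too. Of 7 stellate cell and myofibroblast markers, 4 were called higher (sums 131 to 401 against 67.3 to 188 CPM). Of 4 cholangiocyte markers, 3 were called higher (5.28 to 151 against 4.78 to 13.99 CPM), and limma-voom called 2. High-fat replicate 9 held the highest cholangiocyte sum, against a high-fat median of 12.9 CPM. In the set with Xist above 1000 counts 0 of these 4 were called, and in the other set 3. Only 1 of 5 sinusoidal endothelial markers was called higher (100.2 to 299 against 111 to 260 CPM), where 13.2% of all genes were. The median log2 fold change of that list was -0.08. Of 5 T cell markers, edgeR, DESeq2 and limma-voom called 0 over all libraries (sums 2.12 to 6.13 against 0.623 to 8.17 CPM). At an unadjusted p under 0.05, 1 was higher, where 24.1% of all genes were. In the set with Xist below 1000 counts, 3 of the 5 were called higher (3.14 to 6.13 against 0.623 to 1.89 CPM), and 0 in the other set. The interaction of diet and set passed for 3 of them.

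Abca1, Abcg1, Soat1 and Pltp were each set against the summed monocyte-derived macrophage markers within a diet. Spp1 weighed most in that sum, with means of 268 CPM on the high-fat diet and 43.5 in controls. Next came Gpnmb at 66.7 CPM on the high-fat diet and Cd9 at 23.2 CPM in controls. Without the 2 libraries farthest from the middle of the sum, taken after subtraction of set means, the 8 permutation p-values ran from 0.161 to 0.79. After subtraction of set means, Abca1 correlated negatively with the sum over the 12 high-fat libraries (r = -0.73, permutation p = 0.00914, adjusted p = 0.0367, rho = -0.65, permutation p = 0.0342, adjusted p = 0.0778). Without high-fat replicates 3 and 8, its r was -0.57 (permutation p = 0.179). That check kept high-fat replicate 9, which held the highest sum (1038 CPM) and the lowest Abca1 on that diet (105 CPM). The same library had the highest cholangiocyte sum (151 CPM), and the part of other cell types in the macrophage sum was not tested. Abcg1 correlated positively with the sum over the 12 control libraries (r = 0.69, permutation p = 0.011, adjusted p = 0.0367, rho = 0.52, permutation p = 0.0914, adjusted p = 0.183), and without control replicates 6 and 11 its r was 0.12, so that the relation rested on those libraries. On the high-fat diet, r of Abcg1 was -0.39 (permutation p = 0.24, adjusted p = 0.3). For Soat1 r was -0.66 on the high-fat diet (permutation p = 0.0211, adjusted p = 0.0602) and 0.66 on the control diet (permutation p = 0.035, adjusted p = 0.0778), with rho of -0.42 and 0.39 (permutation p = 0.224 each, adjusted p = 0.299). Without the 2 libraries, r of Soat1 was -0.60 and -0.07. For Pltp r was 0.21 and 0.44 (permutation p = 0.508 and 0.177), and for Abca1 on the control diet -0.30 (permutation p = 0.396). Within the 6 libraries of either set, r of Abcg1 was 0.92 and 0.62 on the control diet (exact permutation p = 0.0139 and 0.185), and r of Abca1 was -0.72 and -0.78 on the high-fat diet (exact permutation p = 0.122 and 0.0681). For Soat1 it was -0.88 and -0.62 on the high-fat diet (exact permutation p = 0.124 and 0.175) and 0.68 and 0.73 on the control diet (exact permutation p = 0.118 and 0.129).

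Other genes of sterol handling were taken from 8 lists with 57 genes, all tested. Of these, 6 were called higher and 13 lower, where 13.2% and 4.99% of all genes were. With library totals the balance turned, with 13 higher and 7 lower. Members, pathway lists and marker lists were chosen with earlier results of these data known. Their numbers of calls are therefore no test against the share of all genes. Of 11 other LXR targets, 4 were called higher and 0 lower, and the median log2 fold change of the list was 0.28. Lpl, the lipase that frees fatty acids from lipoproteins, was at 71.8 to 221 CPM on the high-fat diet, against 6.33 to 32.5 in controls, a log2 fold change of 3.39 (SE 0.28, adjusted p = 2.07e-08). Arl4c, a small GTPase, rose by 1.68 on the log2 scale and Cd5l, a secreted macrophage protein, by 1.69, while Apoc2, the cofactor of Lpl, rose by 0.67. The other 7, which include Apoe, Mylip and Cyp7a1, the rate-limiting enzyme of bile acid synthesis, had log2 fold changes from -0.28 to 0.34. With library totals 7 of the 11 were called higher. Among the lipogenic genes downstream of LXR, Srebf1, Scd1, Fasn, Acaca and Mlxipl, edgeR, DESeq2 and limma-voom called 0 of 5 and none had an unadjusted p under 0.05. Their log2 fold changes ran from -0.32 for Acaca to 0.55 for Scd1, which spanned 10804 to 42090 CPM on the high-fat diet and 5298 to 31224 in controls.

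Most genes that build and remodel HDL were lower. Of 6, 5 were called lower, where 4.99% of all genes were, with a list median of -0.73 on the log2 scale. In the sets with Xist above and below 1000 counts, 3 and 4 of the 6 were called lower. Apom, an HDL apolipoprotein, had a log2 fold change of -1.20 (SE 0.18, adjusted p = 2.01e-05), and Apoa1, the main HDL protein and acceptor for Abca1, of -0.74 (SE 0.14, adjusted p = 0.000173). Lipg, Lipc and Lcat, which act on HDL lipids, had -1.12, -0.71 and -0.52. With library totals, 2 of the 6 were called lower. Of 5 hepatocyte markers 4 were lower in the same libraries, with the sums given above, and their part in these levels was not tested.

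Most SREBP2 targets were lower as well. Of 9, 6 were called lower, where 4.99% of all genes were, and the list median was -1.11. In the sets with Xist above and below 1000 counts, 3 and 7 of the 9 were called lower. Of all genes, 3.78% and 22.3% were called in either direction in those sets. Sqle and Idi1, enzymes of cholesterol synthesis, had log2 fold changes of -2.97 (SE 0.39, adjusted p = 3.26e-06) and -2.53 (SE 0.26, adjusted p = 2.08e-07). Insig1 had -0.83 and the sterol carrier Stard4 -1.33. In the set with Xist above 1000 counts they had -0.27 and -0.74 and were not called, while Sqle and Idi1 were. With library totals, 4 of the 9 were called lower.

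Few genes that release or oxidize sterols were called. Of 6 genes of lysosomal sterol egress and ester hydrolysis, edgeR, DESeq2 and limma-voom called 0, and 1 was higher and 2 were lower at an unadjusted p under 0.05, which is near the 47.8% of all genes. Lipa, the lysosomal acid lipase, had a log2 fold change of 0.30 (SE 0.09, adjusted p = 0.0105). Of 5 oxysterol enzymes, Cyp7b1, which hydroxylates oxysterols, was called lower at -2.21 (SE 0.57, adjusted p = 0.00324), over a range of 8.80 to 389 CPM on the control diet, and limma-voom did not call it. Ch25h was near the detection limit, with at most 1.10 CPM in any library. Among 10 other lipid-moving ABC transporters, Abcg3 (log2 fold change 1.33) and Abca9 (0.71) were called higher and Abca6 (-0.86) lower. Of all genes, 13.2% were called higher and 4.99% lower. The bile salt pump gene Abcb11 had -0.40 (adjusted p = 0.0157) and the phospholipid transporter gene Abcb4 had 0.07 (adjusted p = 0.582). The median log2 fold changes of these 3 lists were -0.06, -0.38 and 0.08.

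**Figure D5:**
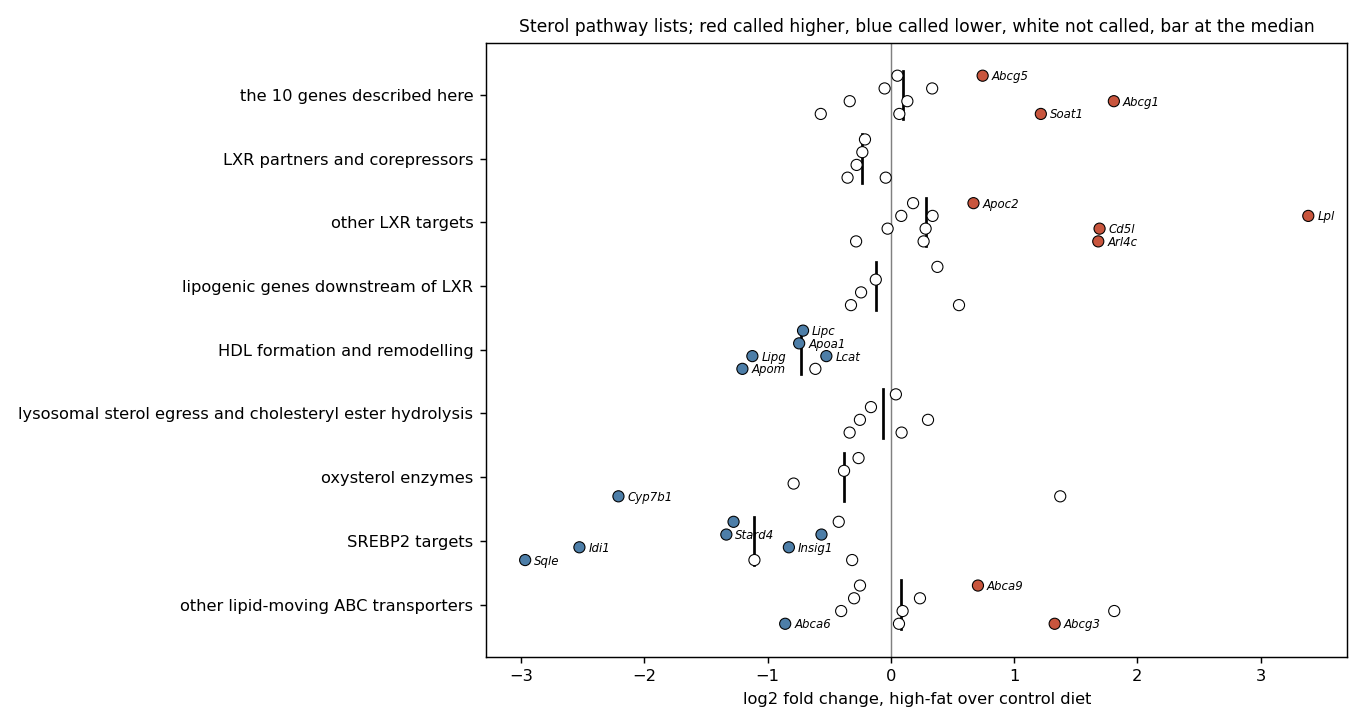
Log2 fold change of high-fat over control diet (x axis) for the 10 genes and for 57 genes in 8 sterol pathway lists (1 row of points per list, small vertical offsets only for legibility), red for genes called higher, blue for lower, white for not called, with a bar at each list's median and names at part of the called genes. The lists of HDL formation and SREBP2 targets lie to the left of 0, with medians of -0.73 and -1.11, and Lpl lies farthest to the right at 3.39.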

How the data were processed

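Raw counts for each Ensembl gene, in whole numbers, were deposited by the authors from poly(A)-selected whole-liver RNA. The submitters' processing notes name bcl2fastq, STAR 2.7.3a and mm10. The supplement describes the exon quantification pipeline with STAR 2.7.3a, and PISCES for gene expression, against a human reference. For the mouse table, the counting program, strand setting and annotation are not given in the sources used here, nor is the test used on the mouse libraries. Each column was matched to its library by title and each diet taken from the labels. Symbols came from GENCODE M21 for 51745 gene IDs, and the other 4460 held 0.0723% of counts.

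From these counts, genes counted at least once in 12 or more libraries were fitted with edgeR 4.0.16 in R 4.3.3 (TMM, quasi-likelihood test, diet as the only term). Standard errors were computed as |log2 fold change| over the root of the F statistic. The test was also run on counts simulated with edgeR's own dispersion estimates. These held no Xist sets and no library with outlying genes, so that run does not bear on either. Ratios used CPM + 0.1 and correlations log2(CPM + 1). Differences of ratios were tested by permutation with 100000 resamples, or exactly for 6 libraries against 6. The thresholds follow those of the study for human liver.

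The genes named are the 10 members and those of the pathway and marker lists, and members and lists were chosen with earlier results of these data known. Some genes of the lists are counted but not reported singly here. Alternatives were DESeq2 1.42.0, limma-voom 3.58.1, library totals, other filters and thresholds, the replicate number as a block, the Xist set as a covariate, either set alone, other pseudocounts, and each library left out in turn. Leaving out high-fat replicate 9 and control replicate 10 together, leaving out each library in the interaction fit, the loosened DR4 search and Ctsa were added after seeing the data. No pair of libraries of a diet agreed within sampling noise (lowest chi-square per degree of freedom 10.1 and 18.3).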

Additional observations from a re-analysis of the deposited data

Results flagged for a closer look

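Differences of the diet effect between the sets of libraries with Xist below and above 1000 counts passed an adjusted p of 0.05 (edgeR's quasi-likelihood interaction test) for 16 of the 67 member and pathway genes, against 10.2% of all genes tested. Each value here is the log2 fold change in the set below 1000 counts minus that in the set above. Among members it was 1.01 for Abcg1, 1.45 for Soat1 and 1.26 for Pltp, as described above. It was also above 0 for Smpdl3a at 0.74, Arl4c at 1.30, Cd5l at 1.42, Abcg3 at 1.51 and Abca9 at 0.94. It was below 0 for Mlxipl at -0.63, Lipe at -0.66, Cyp27a1 at -0.75, Hmgcs1 at -1.23, Insig1 at -1.24, Stard4 at -1.28 and Abcg2 at -0.70. Cyp7b1 had the largest difference of the 16 at -3.18 (SE 0.35, adjusted p = 5.26e-06), with a log2 fold change of 0.45 in the set above 1000 counts and -2.72 in the set below. The sets were defined from the counts of a transcript and are not labelled conditions, so what distinguishes their animals was not tested.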

How the results depend on the processing

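The same 3 members, Abcg1, Abcg5 and Soat1, were called higher under every alternative, including each of the 24 fits without 1 library (3 in each), with the exceptions that library totals added Abcg8, a log2 fold change threshold of 1 left Abcg1 and Soat1, and an adjusted p of 0.05 with no fold threshold called 1 member, Nr1h3, lower. Over all genes, that last rule called 3709 higher and 3388 lower, a fold threshold of 1 called 216 lower, library totals called 3827 higher and 226 lower, and at least 10 counts in every library called 1226 higher. Libraries with Xist above 1000 counts alone yielded 520 higher and 158 lower, and those below yielded 1431 lower. Leaving out 1 library gave 2188 to 2468 higher and 700 to 995 lower. Uncalled members changed sign as follows. Soat2 was at 0.22 with library totals, 0.000196 with at least 10 counts in every library and 0.032 in the set with Xist below 1000 counts. In that set Abca1 was at -0.12 and Pltp at 0.21, and in the other Scarb1 was at -0.057. The 4 ratios kept direction and call, and without 1 library they ran from 1.65 to 1.87 (Abcg1 to Abca1), 0.34 to 0.41 (Abcg5 to Abcg8), -0.46 to -0.31 (Nr1h3 to Nr1h2) and -1.46 to -1.29 (Soat2 to Soat1). The interaction was called for 2 to 4 members without 1 library, adding Abca1 without control replicate 10, and library totals added Scarb1, for 4. Correlations with the macrophage sum depended on the choices. Without the 2 farthest libraries, r on the high-fat diet was -0.57 for Abca1, -0.60 for Soat1 and -0.50 for Pltp, and on the control diet 0.12 for Abcg1 and -0.074 for Soat1. Without subtraction of set means, r on the high-fat diet was 0.59 for Abcg1 and 0.15 for Soat1, and on the control diet 0.47 for Soat1. The causes of these changes were not tested. Replicate numbers were not taken to pair libraries across diets, since their correlations ran from -0.09 to 0.54 and 2 high-fat and 4 control libraries correlated best with their own number. With the replicate block, 3 members were called higher, with Abcg1 at 1.84, and 2063 genes were higher and 844 lower, and Cyp7b1 was no longer called. Of the 10 members, depth limits Soat1 most, with as few as 26 counts in a control library.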
